A study of Saccharomyces cerevisiae and Saccharomyces pastorianus with 78 samples.

Results

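The genes described here take *Saccharomyces cerevisiae* from external sulfate to methionine. They are 10 rows of the BY4741 count table, chosen by systematic name: the sulfate permease genes SUL1 and SUL2, the activation genes MET3 and MET14, the reduction genes MET16, MET5 and MET10, the acetylhomoserine gene MET2, the methionine synthase gene MET6, and the regulator gene MET28. The table holds 7127 features, of which 6101 passed a filter on low counts. Of the 10 genes, 9 passed it, and MET28 did not.

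The study asked how yeast responds over time to stresses on the plasma membrane. BY4741, a haploid MATa laboratory strain labelled wild type that is known to carry deletions of MET17, LEU2 and URA3 and a partial deletion of HIS3, grew in YPD, a rich medium, at 25 °C until the OD595 reached about 0.1. The cultures were divided into a pair of aliquots, of which one received 7% ethanol (EtOH) and the other 0.01% sodium dodecyl sulfate (SDS), an anionic detergent. Cells were collected at 0.5 and 1 h, at 2 and 4 h, and at 8 and 20 h. The control was taken from the EtOH aliquot just before the addition. Each of the 13 groups had 3 biological replicates, which gave 39 libraries of polyA RNA. The SDS aliquot lacked a separate control and the groups hold no later untreated culture, so time after addition and time in culture cannot be told apart, and both stresses are read against the same 3 controls.

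Sulfate enters the cell through Sul1 and Sul2, is activated by adenylation and phosphorylation, and is reduced to sulfite and then sulfide. Sulfide is joined to acetylhomoserine to make homocysteine, which methionine synthase methylates to methionine. In yeast this set is known as a regulon of the activator Met4, which reaches DNA through Cbf1 and Met28 or through Met31 and Met32, and which is held down when methionine and cysteine are plentiful. MET17 encodes the enzyme that joins sulfide to acetylhomoserine, so BY4741 lives on organic sulfur from the medium, and YPD provides it.

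The binding word of Cbf1, CACGTG, lies upstream of nearly all of these genes, and one copy per gene is shown because 9 of the 10 genes hold it. Coordinates and bases are from the RefSeq R64 genome, written 5′ to 3′ on the strand of the gene, with CACGTG in capitals.
SUL2, chrXII:323226-323251, plus strand: cgtgtcaggtCACGTGaagagagaaa
MET14, chrXI:439598-439623, minus strand: ccactaatttCACGTGatcaatatat
MET16, chrXVI:877795-877820, minus strand: atcatcatttCACGTGgctagtaaaa
MET5, chrX:683574-683599, minus strand: tgaatttcatCACGTGcgtattatct
MET10, chrVI:213071-213096, plus strand: cttatagaagCACGTGaccacaattc
MET2, chrXIV:116986-117011, plus strand: gacgtattttCACGTGatgcgcctca
MET6, chrV:342647-342667, minus strand: tatttCACGTGacttacaaac
MET28, chrIX:384323-384348, minus strand: gtactgagtgCACGTGacttattttt

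MET3 holds a pair of CACGTG words and, further down, CCACAG, the reverse complement of the core CTGTGG that Met31 and Met32 bind. This stretch of 150 bases ends 238 bases before the ATG.
MET3, chrX:455852-456001, plus strand: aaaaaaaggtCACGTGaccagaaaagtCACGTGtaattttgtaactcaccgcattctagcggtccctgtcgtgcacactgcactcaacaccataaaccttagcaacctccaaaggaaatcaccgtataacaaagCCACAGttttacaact

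In the 500 bases before the ATG, on both strands, CACGTG occurred in 9 of the 10 genes and in 6.23% of 6000 yeast promoters. SUL1 was the gene without it. CTGTGG occurred in 6 of the 10 (SUL1, SUL2, MET3, MET10, MET6 and MET28) and in 13.2% of promoters. Both words together were found in 5 of the 10, against 0.917% of promoters. TGACTC, a word of the amino acid starvation activator Gcn4, occurred in SUL1, MET16, MET5, MET6 and MET28, against 12.7% of promoters. MET6 held it in 2 copies. All 13 CACGTG words of these genes had a T just before or an A just after, as did 71.8% of the 419 words in all promoters. These matches describe letters in a window and show no binding.

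The 39 libraries held 3105804 to 21167236 counts (median 7706767). MET17, LEU2 and URA3 had 0 counts in all 39, which allows up to 0.833 CPM (counts-per-million) in the smallest library, for counting error only. HIS3, of which BY4741 carries a partial deletion, had 310 to 2650 counts, which checks nothing about the allele. The MATa genes STE2, MFA1, MFA2, BAR1 and STE6 were detected in every library (5 of 5), with a summed level of 1465 to 1578 CPM in the controls and 332 to 363 CPM at 4 h of SDS. The 3 genes of the other mating type summed to 7.73 to 10.8 CPM in the controls and to at most 21.6 CPM in any library. The part of this shift in the results below was not tested. Replicates correlated at 0.973 or more (log2 CPM over genes) in 12 groups, while EtOH 20 h ran from 0.943 to 0.987. EtOH 20 h replicate 3 stood apart, and so, for MET6, did SDS 2 h replicate 1. Called fold changes that rest on either are given with and without it.

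Levels are CPM after trimmed-mean (TMM) scaling, as mean ± standard deviation (SD) of n = 3, and a level is a share of the RNA of the whole culture, in which fewer cells expressing a gene and less RNA per cell cannot be told apart. Log2 fold changes come from edgeR's quasi-likelihood test on all 39 libraries, with an approximate standard error (SE). Calls needed a log2 fold change of at least 1 in either direction together with a p under 0.05 after Benjamini-Hochberg adjustment over all tested genes.

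Of the 10 genes, the 9 tested did not move as a block in either stress. SDS was followed by a rise of MET16 at all 6 times, a fall of MET2 at 0.5 and 1 h and a fall of MET6 at 1 h, while SUL2, MET5 and MET10 stayed within 0.45 log2 units of the control. EtOH was followed by no called change up to 4 h and by rises of MET16 and MET6 at 8 h. Beside each other, the stresses differed most in MET6.

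**Figure D1:**
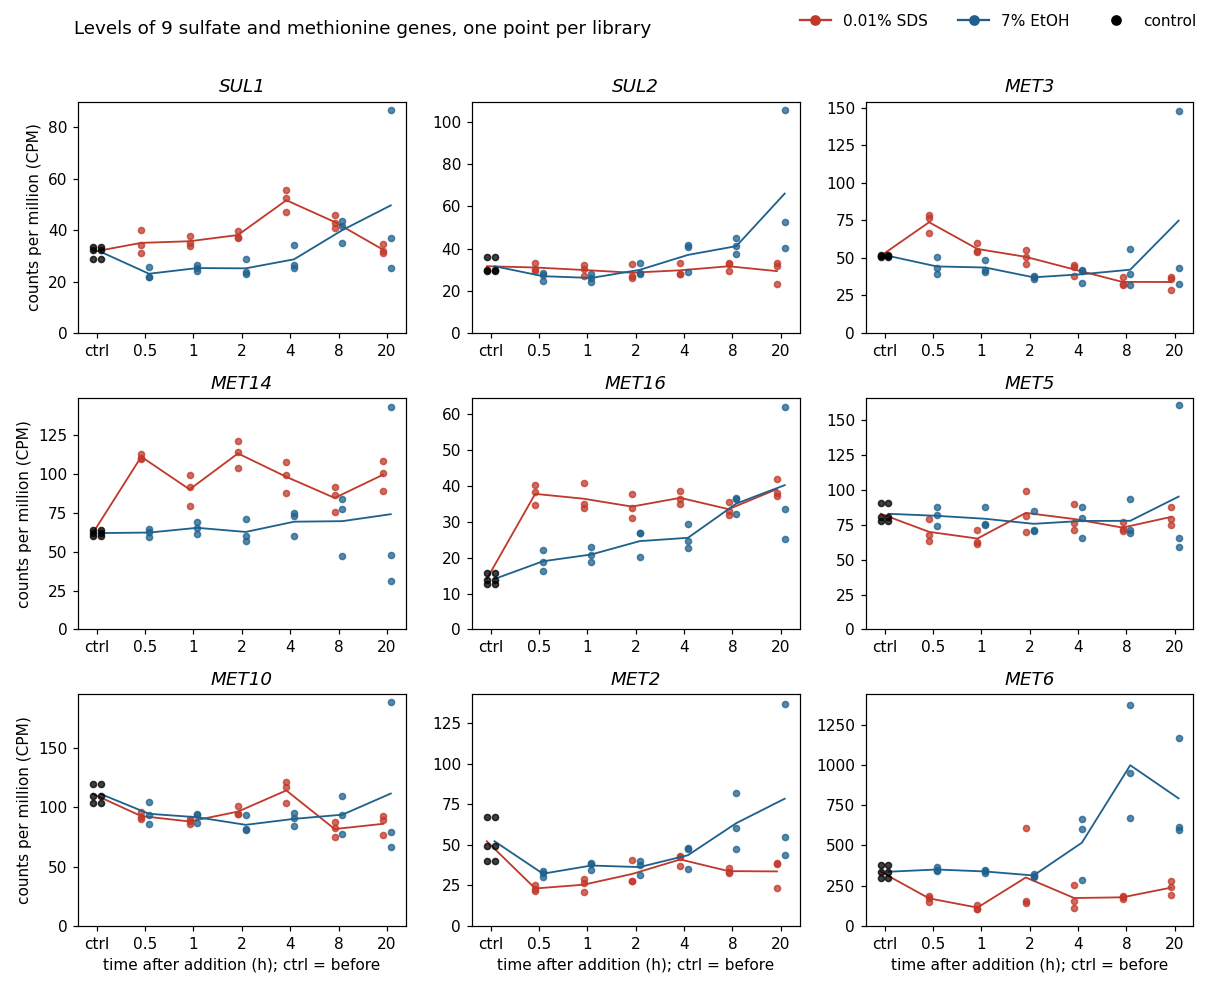
Levels in counts-per-million (CPM, vertical axis from 0) of the 9 tested genes before the addition (ctrl) and at 6 times after it, with 1 point per library and lines through the group means (n = 3). MET16 is high from 0.5 h of SDS and reaches a like level late in EtOH, and MET6 is high late in EtOH. In every panel 1 EtOH 20 h library lies above the others of its own group.

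Per kilobase of coding length, which allows genes to be compared, MET6 was the highest of the 10 in the control, at 146 ± 17.6 CPM per kb, and MET14 followed at 102 ± 3.36. MET10 (35.8 ± 2.57), MET2 (35.7 ± 9.45) and MET3 (33.4 ± 0.353) lay together and were not separated beyond their spread, as were MET5 (19.2 ± 1.55) and MET16 (17.9 ± 1.88), and SUL1 (12.3 ± 0.955) and SUL2 (11.8 ± 1.39). MET28, a basic leucine zipper cofactor of Met4, stood at 0.555 ± 0.755 CPM per kb. It had 0 to 20 counts per library over the 39 libraries, with 8 at 0, so no change of it could be read at this depth.

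In SDS, the count of called genes among the 9 tested was 2 after 0.5 h, 3 after 1 h and 1 at each of the 4 later times. Over all 6101 genes 19.1%, 11.3%, 9.47%, 10.5%, 6.15% and 4.67% were called at these times. A count of 1 is the smallest that 9 genes can show above 0, so these shares are not a result about the genes as a set. Their median log2 fold change lay between -0.18 and -0.02, and that of all genes between -0.01 and 0.02. In EtOH the counts were 0 at 0.5, 1, 2 and 4 h, 2 at 8 h and 3 at 20 h, against 2.18%, 2.34%, 2.84%, 5.02%, 10.2% and 13.9% of all genes. DESeq2 also called 0 of the 9 at 0.5 to 4 h of EtOH. In edgeR, 2, 1, 1 and 1 of them had an unadjusted p under 0.05, and 0, 0, 1 and 1 (MET16) an adjusted p under 0.05. The median of the 9 was -0.21, -0.24, -0.13 and -0.09 at those times, 0.30 at 8 h and 0.59 at 20 h, while that of all genes stayed between -0.01 and 0.03. The 20 h count was 1 (MET16) without EtOH 20 h replicate 3, against 11.2% of all genes, and the median of the 9 was -0.08.

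**Figure D2:**
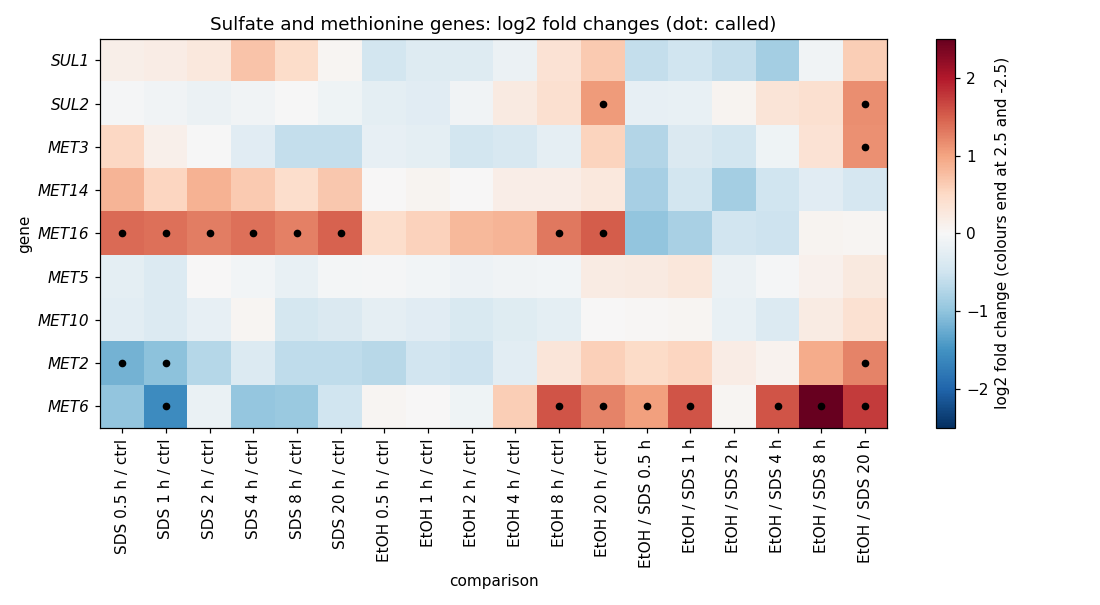
Log2 fold change (colour) of the 9 tested genes (rows) in 18 comparisons (columns): each time of SDS and of EtOH against the control, and EtOH against SDS at each time. Dots mark called values (adjusted p under 0.05 and size of at least 1), which fall mostly in MET16 and MET6.

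SUL1 (YBR294W, chromosome II, 789235 to 791814) and SUL2 (YLR092W, chromosome XII, 323544 to 326225) encode the high-affinity sulfate permeases. SUL1 stood at 32.4, 28.9 and 33.6 CPM in the controls, at 47.2, 52.4 and 55.5 CPM at 4 h of SDS and at 21.6, 25.9 and 21.7 CPM at 0.5 h of EtOH. The SDS 4 h libraries all lay above the controls and the EtOH 0.5 h libraries all below them, but neither difference reached the size limit. Its log2 fold change was 0.71 ± 0.22 (SE, adjusted p = 0.00741) at 4 h of SDS and -0.45 ± 0.23 (adjusted p = 0.203) at 0.5 h of EtOH.

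SUL2 was nearly flat in SDS, with group means of 28.6 to 31.7 CPM against 31.7 ± 3.72 CPM in the control. In EtOH it read 41.1, 45.0 and 37.5 CPM at 8 h and 40.1, 52.6 and 106 CPM at 20 h. All 6 of these libraries lay above the highest control, 35.9 CPM, and 1 of them stood far above the rest. The 20 h rise was called (1.06 ± 0.20, adjusted p = 3.93e-05), and without EtOH 20 h replicate 3 it was 0.55 (adjusted p = 0.00245), under the size limit.

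MET3 (YJR010W, chromosome X, 456239 to 457774) encodes ATP sulfurylase, which adenylates sulfate. Its 3 controls were close, at 51.9, 50.8 and 51.3 CPM, and the SDS libraries read 66.4, 78.4 and 76.5 CPM at 0.5 h and 35.9, 28.8 and 37.2 CPM at 20 h. MET3 thus lay above the control early and below it late, with no overlap in either case, and neither difference was called (0.52 ± 0.28, adjusted p = 0.104, and -0.60 ± 0.29, adjusted p = 0.109). Within SDS, however, its 6 times differed by the F test, with a range of 1.12 log2 units (adjusted p = 0.00339). MET3 was 1 of 2 genes called by this test, the other being MET6, against 25% of all genes. The MET6 range of 1.41 log2 units (adjusted p = 0.0197) ran from 1 h to 2 h. The 2 h group holds the high replicate 1, and the MET6 test without that library is not given here.

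MET14 (YKL001C, chromosome XI, 438777 to 439385) encodes adenylylsulfate kinase, the next step. Its controls read 61.7, 64.1 and 60.04 CPM. At 0.5 h of SDS it stood at 110.2, 109.8 and 113 CPM, and at 2 h at 104, 121 and 114 CPM. All 18 SDS libraries lay above all controls, from 75.2 CPM upward. The log2 fold change was 0.84 ± 0.27 at 0.5 h (adjusted p = 0.00735), 0.87 ± 0.27 at 2 h (adjusted p = 0.00821), 0.66 ± 0.27 at 4 h (adjusted p = 0.0375) and 0.68 ± 0.27 at 20 h (adjusted p = 0.0471), always under the size limit. At 1 and 8 h it was 0.54 (adjusted p = 0.0957) and 0.45 (adjusted p = 0.200). In EtOH its means stayed between 62.2 and 74.1 CPM, and the largest log2 fold change was 0.26 ± 0.27 (adjusted p = 0.415), at 20 h. This 20 h value was -0.65 (adjusted p = 0.00187) without EtOH 20 h replicate 3.

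MET16 (YPR167C, chromosome XVI, 876847 to 877632) encodes phosphoadenylylsulfate reductase, which releases sulfite. It stood at 13.7, 15.7 and 12.8 CPM in the controls. After 0.5 h of SDS it read 40.3, 34.8 and 38.3 CPM, and it was still at 38.1, 37.2 and 42.0 CPM at 20 h. The lowest of the 18 SDS libraries read 31.2 CPM, against 15.7 CPM in the highest control. The log2 fold change was 1.42 ± 0.19 at 0.5 h (adjusted p = 1.49e-07), 1.25 ± 0.20 at 8 h (adjusted p = 7.02e-06), the smallest of the 6, and 1.47 ± 0.20 at 20 h (adjusted p = 5.00e-07). It was called at all 6 times, and remained called with any 1 of the compared libraries left out (1.19 to 1.56). Its 6 SDS means did not differ from one another by the F test (range 0.22, adjusted p = 0.842).

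In EtOH the mean of MET16 was higher at each time up to 8 h than at the time before. It was 14.1 ± 1.48 CPM in the control, 19.0 ± 2.94 after 0.5 h, 20.9 ± 2.11 after 1 h, 24.6 ± 3.80 after 2 h and 25.5 ± 3.56 after 4 h. It was 35.1 ± 2.55 after 8 h and 40.2 ± 19.4 after 20 h, where the libraries read 25.1, 33.5 and 62.0 CPM and 1 of them lay above all 8 h libraries. Neighbouring times overlapped up to 4 h, and all 18 EtOH libraries lay above the highest control. The log2 fold change was 0.80 ± 0.20 at 2 h (adjusted p = 0.00419) and 0.86 ± 0.20 at 4 h (adjusted p = 0.00113), both under the size limit. The rise was called at 8 h (1.32 ± 0.20, adjusted p = 1.47e-06) and at 20 h (1.52 ± 0.19, adjusted p = 1.12e-07), and at 20 h it was 1.06 (adjusted p = 5.78e-07) without replicate 3. At 0.5 h the EtOH libraries (22.0, 18.8 and 16.2 CPM) lay below the SDS libraries, by -0.99 ± 0.19 (adjusted p = 2.70e-05), just under the size limit. At 8 and 20 h the difference between the stresses was 0.06 ± 0.18 and 0.05 ± 0.18 (adjusted p = 0.801 and 0.845), and at 20 h it was -0.42 (adjusted p = 0.012) without replicate 3.

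MET5 (YJR137C, chromosome X, 678957 to 683285) and MET10 (YFR030W, chromosome VI, 213312 to 216419) encode the beta and alpha subunits of sulfite reductase. MET5 read 80.7, 90.4 and 77.6 CPM in the controls, and its 12 treated means ran from 65.2 to 95.3 CPM. MET10 read 104, 119.8 and 109.8 CPM, with treated means of 81.7 to 114 CPM. Neither was called in any comparison, and their log2 fold changes against the control ran from -0.35 to 0.20 for MET5 and from -0.45 to 0.04 for MET10. The 20 h values without EtOH 20 h replicate 3 were -0.41 for MET5 (adjusted p = 0.0171) and -0.61 for MET10 (adjusted p = 3.66e-05), under the size limit.

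MET2 (YNL277W, chromosome XIV, 117349 to 118809) encodes homoserine O-acetyltransferase. Its controls were spread, at 40.0, 67.2 and 49.4 CPM, and the SDS libraries read 22.9, 25.0 and 21.4 CPM at 0.5 h and 21.1, 26.2 and 28.8 CPM at 1 h. All 6 lay below the lowest control. MET2 fell by 1.18 ± 0.28 at 0.5 h (adjusted p = 0.000446) and by 1.03 ± 0.27 at 1 h (adjusted p = 0.00215). Without control replicate 2, the highest, both were under the size limit (-0.95 and -0.81), as was the 1 h value without SDS 1 h replicate 1 (-0.92). In EtOH MET2 stood at 32.2 ± 1.74 CPM at 0.5 h (-0.70 ± 0.27, adjusted p = 0.0824) and at 63.3 ± 17.5 CPM at 8 h (0.30 ± 0.26, adjusted p = 0.334).

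MET6 (YER091C, chromosome V, 339864 to 342167) encodes the cobalamin-independent methionine synthase. It varied most of the 9 genes, from a mean of 114 CPM at 1 h of SDS to 997 CPM at 8 h of EtOH. The controls read 377, 337 and 296 CPM. At 1 h of SDS it read 129.6, 104 and 107 CPM, all below the controls, and it fell by 1.57 ± 0.37 (adjusted p = 0.000692). At 0.5, 4 and 8 h of SDS all 9 libraries again lay below the controls, and the values were -0.98, -0.96 and -0.92 (adjusted p = 0.021, 0.0272 and 0.0452), just under the size limit.

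At 2 h of SDS the replicates split, at 609, 152 and 141 CPM, and the log2 fold change was -0.16 ± 0.36 (adjusted p = 0.744). Without SDS 2 h replicate 1 MET6 was called at this time too (-1.199, adjusted p = 0.00184). The other 8 tested genes held no such split in that library. It was the only gene of the 9 that lay at least 2-fold above both other replicates there, against 0.59% of all genes.

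EtOH left MET6 near the control up to 2 h, with means of 350.1, 338 and 313 CPM. It read 661, 604 and 285 CPM at 4 h (0.62 ± 0.36, adjusted p = 0.177), and then 947, 1374 and 672 CPM at 8 h and 613, 594 and 1168 CPM at 20 h. All 8 h and 20 h libraries lay above all controls. MET6 rose by 1.57 ± 0.37 at 8 h (adjusted p = 0.000569) and by 1.23 ± 0.36 at 20 h (adjusted p = 0.00432). Without EtOH 20 h replicate 3 the 20 h value was 0.84 (adjusted p = 0.0574). At 8 h, replicate 2, the deepest library of the series, was the highest of its group in 8 of the 9 tested genes, against 17.2% of all genes. It lay at least 2-fold above both other libraries in 0 of the 9. The 8 h rises of MET16 and MET6 remained called with any 1 of the compared libraries left out (1.25 to 1.43 and 1.27 to 1.79).

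EtOH and SDS were compared directly at each time, without the controls. MET6 was the gene called most often, higher in EtOH at 0.5, 1, 4, 8 and 20 h by 1.04, 1.57, 1.58, 2.49 and 1.74 log2 units (SE 0.36 to 0.38, adjusted p = 0.0135 to 2.67e-06), with no overlap between the groups. At 2 h its difference was 0.06 ± 0.36 (adjusted p = 0.909), and 1.10 (adjusted p = 0.0034) without SDS 2 h replicate 1. At 0.5, 1, 4 and 8 h MET6 was the 1 called gene of 9. At 2 h 0 of 9 were called by edgeR or DESeq2. The 3 with an unadjusted p under 0.05 in edgeR also had an adjusted p under 0.05. They were SUL1, MET14 and MET16, lower in EtOH and under the size limit (-0.60, -0.85 and -0.48, adjusted p = 0.0291, 0.00874 and 0.0318). Over all genes 24.1%, 15%, 11.3%, 11.1%, 8.67% and 13.8% were called at the 6 times.

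At 20 h the called genes were SUL2, MET3, MET2 and MET6, all higher in EtOH (1.17, 1.15, 1.23 and 1.74), and the MET3 groups overlapped. Without EtOH 20 h replicate 3 they were MET6 (1.35, adjusted p = 0.003) and MET14, which was lower in EtOH (-1.33, adjusted p = 1.06e-07). SUL2, MET3 and MET2 were under the size limit without that library (0.65, 0.17 and 0.56). The MET14 difference was negative at every time, at -0.83 ± 0.27 (adjusted p = 0.00699) at 0.5 h, -0.85 ± 0.27 (adjusted p = 0.00874) at 2 h and -0.42 ± 0.27 (adjusted p = 0.177) at 20 h with all libraries. By the F test over the 6 times, 4 of 9 genes were called (SUL2, MET3, MET2 and MET6), against 36.4% of all genes. By the F test for time within EtOH, 6 of 9 were called (SUL1, SUL2, MET3, MET16, MET2 and MET6), against 19.4%. Without EtOH 20 h replicate 3 these counts were 2 (MET14 and MET6) and 2 (MET2 and MET6), against 35.5% and 16.8% of all genes.

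EtOH 20 h replicate 3 was the highest of its group in all 9 tested genes, against 42.6% of all genes. It lay at least 2-fold above both other libraries in 7 of the 9 genes and in 8 of 42 other sulfur pathway genes, against 4.06% of all genes. The ratio to the mean of the other 2 libraries was largest for MET3 (3.88) and MET14 (3.62) and smallest for MET6 (1.93). MET14 read 31.4, 47.6 and 143 CPM in the 3 libraries, so it lay below all controls in 2 of them and far above in the third. Other genes stood higher still in this library, such as the small nucleolar RNA gene snR18 at 3.07, 7.63 and 84.3 CPM, HSP30, a membrane stress protein, at 27.9, 95.4 and 788 CPM, and SIS1, an Hsp40 cochaperone, at 326, 930.2 and 5256 CPM. These 3 were picked from the 15 highest ratios after their values were seen, and their part in the sulfur gene levels was not tested.

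**Figure D3:**
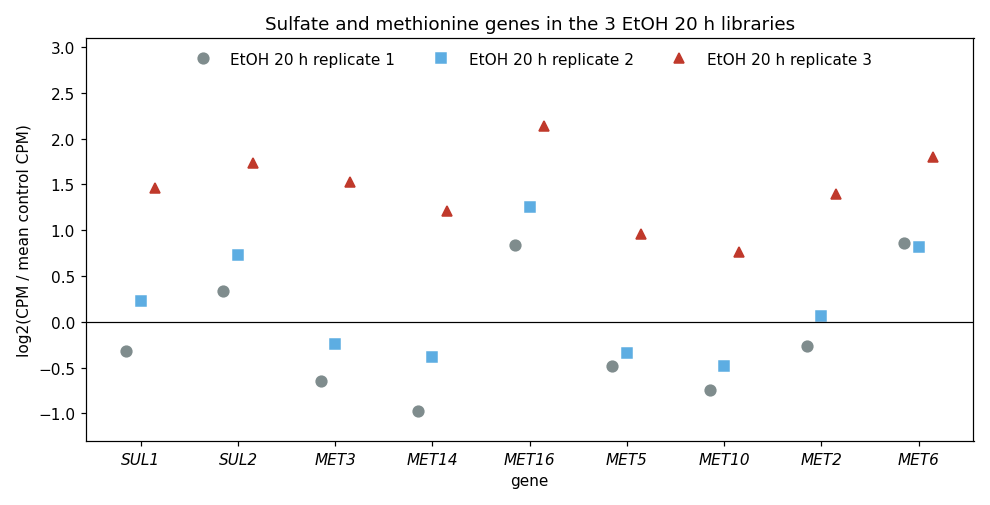
Log2 ratio of the level in each of the 3 EtOH 20 h libraries to the mean of the 3 controls (vertical axis), for each tested gene (horizontal axis). Replicate 3 lies above the other libraries in all 9 genes, and for MET3, MET14, MET5 and MET10 it lies on the other side of the control level.

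How far the 9 genes moved together depended on this library. Over deviations of the 39 libraries from their group means, the median correlation of the 36 gene pairs was 0.70, and 29 pairs exceeded 0.5. Over the 38 libraries without EtOH 20 h replicate 3 the median was 0.22 and 8 pairs exceeded 0.5, and over the 36 without any EtOH 20 h library these were 0.15 and 5. Over the 13 group means of log2 CPM the median pair correlation was 0.17, and 14 of 36 pairs were below 0. The pairs ran from -0.69 (MET14 with MET6) to 0.84 (MET2 with MET6). Without replicate 3 the median over group means was 0.06, 16 pairs were below 0, and the same pairs stood at -0.70 and 0.81. These points share libraries, depth and scaling, and the correlations describe them only.

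MET6 moved from library to library with genes of one-carbon and purine metabolism, which were picked after their values were seen. Over within-group deviations of 39 libraries, MET6 correlated with ADE2 and ADE17 of purine synthesis at 0.95 and 0.93, with HIS4 of histidine synthesis at 0.93, and with SHM2 and MTD1 of cytosolic one-carbon folate metabolism at 0.90 and 0.91. Over 24 libraries, leaving out SDS 2 and 4 h and EtOH 4, 8 and 20 h, where replicates differed most, the values were 0.54 (MTD1) to 0.81 (ADE17). At 2 h of SDS, ADE17 read 609.7, 130.4 and 136 CPM and SHM2 1228, 265 and 285 CPM, the same high replicate 1 as MET6. At 4 h of EtOH, ADE17 read 727, 610.3 and 291 CPM and SHM2 1339, 1099 and 427 CPM, the same low replicate 3 as MET6.

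**Figure D4:**
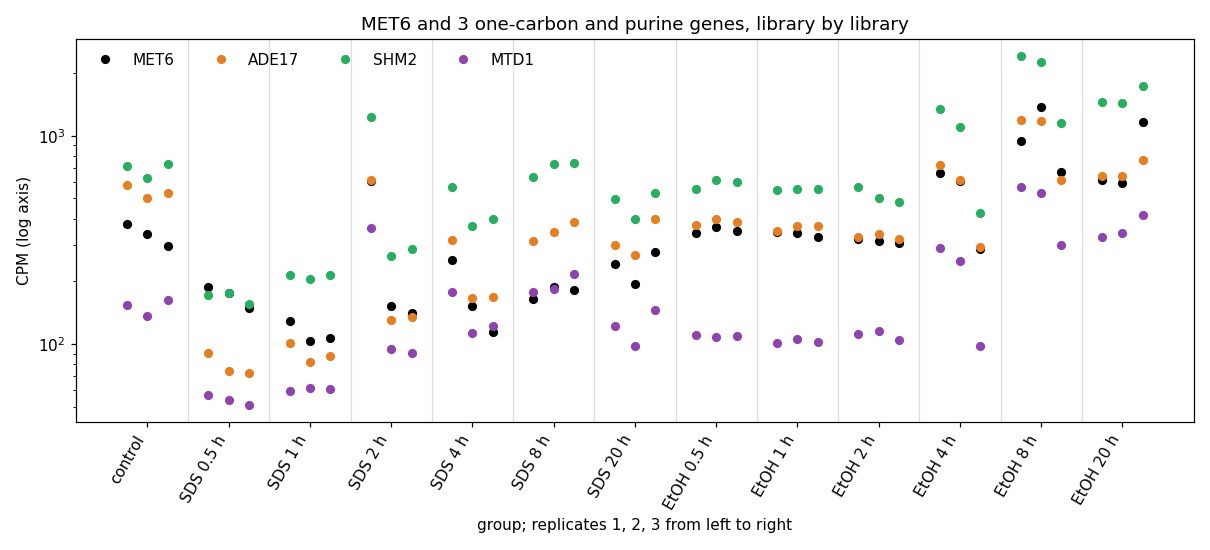
Level in counts-per-million (CPM, log axis) of MET6, ADE17, SHM2 and MTD1 in each library of the 13 groups, with replicates 1, 2 and 3 from left to right. The 4 genes share the high replicate 1 at 2 h of SDS, the low replicate 3 at 4 h of EtOH and low levels at 0.5 and 1 h of SDS.

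Across conditions these companions correlated with MET6 as well, at 0.77 (HIS4) to 0.88 (SHM2) over the 13 group means, but not all shared its called changes. At 1 h of SDS, ADE17 fell by 2.58 ± 0.38 (adjusted p = 1.11e-06) and SHM2 by 1.71 ± 0.36 (adjusted p = 0.000228). HIS4 and MTD1 were called lower there too (-1.53 and -1.32), while ADE2 was under the size limit (-0.85, adjusted p = 0.0128). At 8 h of EtOH SHM2 rose by 1.49 ± 0.36 (adjusted p = 0.000834), while ADE17 was 0.88 ± 0.36 higher (adjusted p = 0.0367), under the size limit. MTD1 was called at 8 h (1.63), and ADE2 and HIS4 were under the size limit (0.85 and 0.43). At 20 h of EtOH SHM2 and MTD1 were called higher (1.15 and 1.26). ADE17, ADE2 and HIS4 were not called there (0.34, 0.48 and -0.03). All 5 companions hold 2 to 4 copies of TGACTC upstream and no CACGTG, and MET6 holds both words. Whether Gcn4 or any other factor acts through TGACTC in these genes was not tested. Of 6000 promoters, 1.43% held 2 or more copies. The part of the MET6 promoter with its 2 TGACTC words is shown with their reverse complement GAGTCA in capitals.
MET6, chrV:342506-342636, minus strand: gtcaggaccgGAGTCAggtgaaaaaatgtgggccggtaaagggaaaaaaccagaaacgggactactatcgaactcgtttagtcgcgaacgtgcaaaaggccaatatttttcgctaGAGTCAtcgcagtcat

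The rest of the sulfur pathway was followed in 42 genes in 9 lists, all of which were tested. In SDS, 8 of the 42 fell and 1 rose at 0.5 h, 7 fell and 1 rose at 1 h, and 3 to 5 fell and 0 to 2 rose from 2 to 20 h. In EtOH 0 were called at 0.5, 1 and 2 h, 2 rose at 4 h, 3 rose at 8 h, and 3 rose and 2 fell at 20 h. At 20 h, 1 rose (SEO1) and 1 fell (MMP1) without EtOH 20 h replicate 3. The median log2 fold change of the 42 ran from -0.21 (SDS 0.5 h) to 0.00 (EtOH 0.5 h). Over all genes 1.97% to 10.6% fell and 2.7% to 8.49% rose at the SDS times, and 1.25% to 4.25% fell and 0.918% to 9.67% rose at the EtOH times. In either direction 19.1%, 11.3%, 9.47%, 10.5%, 6.15% and 4.67% were called from 0.5 to 20 h of SDS. For EtOH these shares were 2.18%, 2.34%, 2.84%, 5.02%, 10.2% and 13.9%. The counts by list below stand beside these shares. The falls in SDS lay in 2 lists, the S-adenosylmethionine (AdoMet) cycle and the uptake of organic sulfur, apart from the salvage gene MEU1.

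In the AdoMet cycle (SAM1, SAM2, SAH1, SAM4 and MHT1), 3 of 5 fell at 0.5 and 1 h of SDS. SAM1, an AdoMet synthetase gene, stood at 789.8 ± 22.8 CPM in the control and at 115 ± 19.5 CPM at 0.5 h of SDS, a fall by 2.78 ± 0.16 (adjusted p = 7.01e-16), and was back at 774 ± 26.1 CPM at 8 h. SAM4 and MHT1 encode methyltransferases that make methionine from homocysteine with AdoMet or S-methylmethionine. SAM4 fell by 1.38 ± 0.14 at 0.5 h (adjusted p = 3.79e-10), and MHT1 by 2.08 ± 0.27 at 1 h (adjusted p = 1.15e-07) and at all 6 SDS times. In EtOH 1 of these 5 was called, SAM4 at 20 h (-1.11), which was under the size limit without replicate 3 (-0.87).

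Of 9 genes for organic sulfur uptake and use, 4 fell at 0.5 and at 1 h of SDS. MMP1, the S-methylmethionine permease gene, stood at 101 ± 13.1 CPM in the control and 16.6 ± 0.796 CPM at 1 h, a fall by 2.60 ± 0.27 (adjusted p = 2.27e-09). SAM3, the AdoMet permease gene, fell by 2.28 ± 0.18 at 4 h (adjusted p = 3.57e-12), and both were called at all 6 SDS times. MMP1 was also called at 20 h of EtOH without replicate 3 (-1.35, adjusted p = 3.17e-07). MUP3, a methionine permease gene, fell by 2.19 ± 0.49 at 1 h (adjusted p = 0.000389), and in EtOH rose by 1.51 ± 0.39 at 8 h (adjusted p = 0.00157). Its 20 h EtOH value was 1.06 ± 0.39 (adjusted p = 0.0212), and -0.02 without replicate 3. SEO1, a putative permease gene, rose by 4.09 ± 0.57 at 20 h of EtOH (adjusted p = 5.01e-07), from 0.976 ± 0.719 CPM to 17.2 ± 20.2 CPM, and by 2.44 (adjusted p = 3.06e-06) without replicate 3.

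In transsulfuration (CYS3, CYS4, STR2, STR3 and IRC7), 1 of 5 was called at 4, 8 and 20 h of EtOH and 0 in SDS. STR3, the cystathionine beta-lyase gene, rose from 7.33 ± 0.98 CPM to 68.7 ± 36.8 CPM at 8 h, by 3.26 ± 0.47 (adjusted p = 7.85e-07). Its 8 h libraries ranged from 41.1 to 111 CPM, all above the controls. Its 20 h rise (2.22) was just under the size limit without replicate 3 (0.996, adjusted p = 0.0418), and its 4 h rise (1.53) was not called without replicate 1 or replicate 2.

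Of the regulators MET4, MET31, MET32, CBF1 and MET30, the genes for homoserine supply (HOM2, HOM3 and HOM6) and for methyl supply (MET7, MET12 and MET13), and the siroheme and phosphoadenosine genes MET1, MET8 and MET22, none was called against the control at any time. In the glutathione and thioredoxin list 1 of 4 rose at 0.5 and 1 h of SDS, the thioredoxin gene TRX2, by 1.199 ± 0.11 at 1 h (adjusted p = 1.57e-10). In methionine salvage ADI1, which encodes acireductone dioxygenase, rose by 1.76 ± 0.12 at 4 h of SDS (adjusted p = 1.13e-13). MEU1, the methylthioadenosine phosphorylase gene, fell by 1.08 ± 0.13 at 0.5 h of SDS (adjusted p = 1.39e-08). MRI1, the isomerase of that pathway, fell by 1.11 ± 0.13 at 20 h of EtOH (adjusted p = 1.15e-08) and was under the size limit without replicate 3 (-0.92, adjusted p = 3.63e-08).

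**Figure D5:**
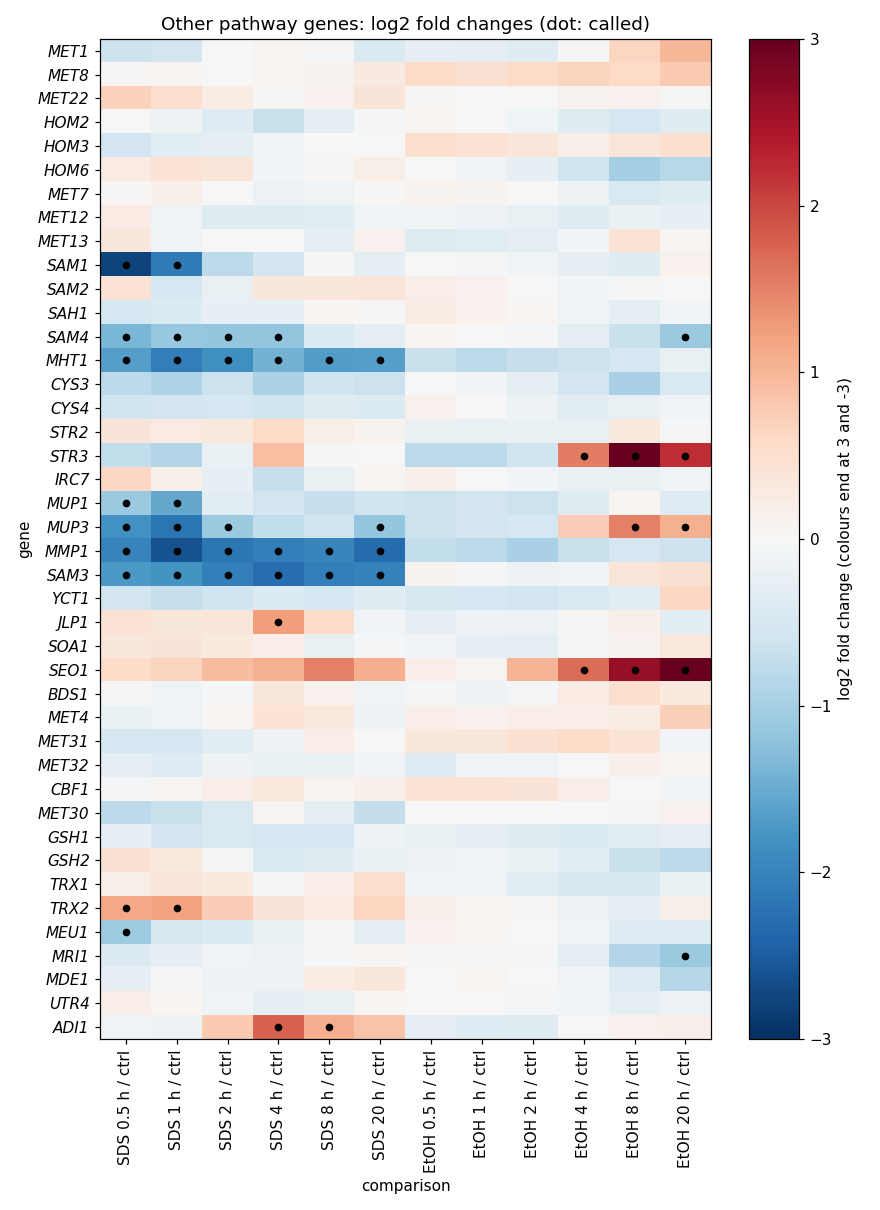
Log2 fold change against the control (colour) of 42 other sulfur pathway genes (rows, grouped by list) at 6 times of SDS and of EtOH (columns), with dots on called values. The dots in SDS cluster in the AdoMet cycle and organic sulfur uptake genes, and those in EtOH fall in STR3, MUP3, SEO1, SAM4 and MRI1.

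The genes whose 13 group means were most like the mean centred profile of the 9 genes, among genes of at least 20 CPM, were AAD6 (Pearson r = 0.91), GDH2 (0.91), VRL1 (0.91), HAA1 (0.90), DOA4 (0.90), ART10 (0.89), RIB1 (0.89), VPS72 (0.89), GCV2 (0.88) and MET1 (0.88). The 9 genes themselves correlated with that mean at -0.12 (MET14) to 0.88 (SUL2). Without EtOH 20 h replicate 3, 0 of these 10 genes were among the 10 most alike, and their correlations were 0.41 to 0.75.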

How the data were processed

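The deposited BY4741 table holds raw counts per gene, made by the authors. Per the submitters' processing notes the tools were featureCounts 2.0.1, STAR 2.7.8, Trimmomatic 0.39 and FastQC 0.11.9, and the build was R64. The strand setting and the treatment of reads with several matches are not given in the sources. Tests were run with edgeR 4.0.16 in R 4.3.3 (filterByExpr, TMM, glmQLFit and glmQLFTest, 1 coefficient per group, 26 residual degrees of freedom). SE is the absolute log2 fold change over the square root of F. The F tests were called at an adjusted p under 0.05 and a range or largest difference of at least 1. Code for the tests was tested on simulated data. The *S. pastorianus* table was not used here. The 10 genes, the pathway lists and the rules were chosen with earlier results of these data known. In each list up to 4 genes with the largest called change were named; JLP1, MUP1 and the MET6 companions are exceptions, picked with their values in view. Other settings tried were leaving out each library, a replicate block, fits of the compared libraries, no filter, RLE factors and DESeq2 1.42.0.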

Additional observations from a re-analysis of the deposited data

Results flagged for a closer look

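For 5 genes the difference between EtOH and SDS depended on time, by an F test of the stress by time interaction added after seeing the data (edgeR, adjusted over all genes), a test that 75.4% of all genes passed. The adjusted p was 0.0014 for SUL1, 0.000764 for SUL2, 0.00132 for MET3, 0.00163 for MET16 and 0.00294 for MET6. The EtOH minus SDS difference at 0.5 h and 20 h was -0.60 and 0.62 for SUL1, -0.21 and 1.17 for SUL2, -0.73 and 1.15 for MET3, -0.99 and 0.05 for MET16, and 1.04 and 1.74 for MET6. Without EtOH 20 h replicate 3 the 20 h difference was -0.06 for SUL1, 0.65 for SUL2, 0.17 for MET3, -0.42 for MET16 and 1.35 for MET6, and the adjusted p of these 5 ran from 7.49e-05 to 0.00185. In that setting MET14, MET5 and MET10 passed too (adjusted p = 0.000972, 0.0216 and 0.00615), as did 78.4% of all genes.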

How the results depend on the processing

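The count of called genes was within 1.5 times its main value with a replicate block, no low-count filter, RLE factors, DESeq2 and fits of the compared libraries, except that EtOH against SDS at 20 h gave 2 in the last (main 4), where MET3 and MET2 had an adjusted p of 0.117 and 0.0563. The labels describe divided cultures but do not tie a replicate number to a culture. In 0 of 18 comparisons were all same-numbered correlations of deviations from group means above 0.1. Between groups, the mean correlation was 0.05 for same-numbered libraries and -0.03 for differently numbered ones, so pairing was neither shown nor excluded. With the replicate block EtOH against SDS at 20 h still gave 4 and time within EtOH 5 (main 6). Leaving out each library gave 1 to 3 called genes for SDS 0.5 h, 1 to 2 for SDS 2 h and SDS 4 h, 1 to 3 for EtOH 20 h, 0 to 2 for EtOH against SDS at 0.5 h, 0 to 1 at 2 h, 1 to 2 at 8 h and 2 to 4 at 20 h. It gave 1 to 2 for time within SDS, 2 to 6 for time within EtOH and 2 to 5 for EtOH against SDS over 6 times. MET6 reversed at SDS 2 h without replicate 2 or 3 of that group (0.17 and 0.18), and in EtOH against SDS at 2 h (-0.27 and -0.28), where the high replicate 1 is 1 of 2 libraries. Without that replicate the values were -1.199 and 1.10. MET6 in EtOH against SDS at 0.5 h was under the size limit with no filter (0.98) and without SDS 0.5 h replicate 3 (0.95), and the MET2 fall at SDS 1 h with no filter (-0.97) and in the fit of the compared libraries (-0.9995). Of 162 fold changes, 133 were called in no setting. MET28 did not pass the low-count filter of the main fit, and no test of it is given.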

Other observations

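Some library-to-library partners of MET10, MET2 and MET5 lay in sulfur and amino acid metabolism, noticed after the values were seen. Over deviations of 36 libraries from their group means, MET10 correlated with the S-methylmethionine permease gene MMP1 at 0.83, MET2 with the methionine permease gene MUP1 at 0.82, and MET5 with MET6 at 0.74 and HIS4 at 0.73. Over all 39 libraries these values were 0.92, 0.90, 0.67 and 0.78. MET14 with the salvage gene MRI1, by contrast, stood at 0.81 over the 36 libraries and at -0.33 over all 39. Genes outside the sulfur lists reached values over the 36 libraries like those picked for MET5. Among them were ECM21 with MET5 itself (0.73), RCI50 with SUL2 (0.75) and CIA1 with MET14 (0.76). The points share depth and scaling, and the values describe them only. MUP1 itself stood at 446 ± 99.3 CPM in the control and fell by 1.54 ± 0.22 at 1 h of SDS (adjusted p = 9.52e-07, edgeR). JLP1, a sulfonate dioxygenase gene, rose by 1.25 ± 0.17 at 4 h of SDS (adjusted p = 2.5e-07, edgeR), with 12.7 ± 0.449 CPM in the control.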
